A study of Mus musculus with 12 samples.

Results

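The 46 genes described here belong to natural killer (NK) cells, T cells and B cells, and were measured as RNA in the whole blood of CB17-SCID mice. They were chosen by name: 12 NK receptors, 6 effectors of cytotoxic granules and killing, 4 chemokines, 2 transcription factors, 5 cytokine and trafficking receptors, 3 surface proteins shared by lymphocytes, 4 subunits of the T cell receptor complex, 7 signalling proteins of T and NK cells and 3 B cell genes. All 46 had a row among the 55367 genes of the count table, and 38 of them had enough counts to be among the 13384 genes tested. The 8 that did not were Klra4, Klra8, Xcl1, Cd3e, Cd3g, Cd79a, Cd79b and Ms4a1.

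Every mouse carried an HT1376 xenograft, grown from a human cell line of bladder cancer, and was dosed for 11 days. The 4 groups of 3 libraries were vehicle, and CPI-0209 at 35 mpk (mg per kg) by mouth once daily with blood drawn 1 h, 6 h or 24 h after the final dose. CPI-0209 (tulmimetostat) blocks EZH2 and EZH1, which place methyl groups on lysine 27 of histone H3 and so help keep genes silent. The labels do not give the time at which vehicle mice were bled, nor whether the 3 libraries of a group came from separate animals, so p-values measure the spread between these libraries, which may in part be technical. Library totals ran from 6496573 to 9978215 counts. On library sizes multiplied by a scaling factor per library (TMM), 3 counts correspond to 0.322 to 0.469 CPM (counts scaled to library size).

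NK cells are lymphocytes that kill infected or transformed cells without a rearranged antigen receptor. They read a balance of activating and inhibitory receptors, many of them lectin-like proteins encoded side by side in the NK gene complex, and they kill by releasing perforin and granzymes. T and B cells need V(D)J recombination to build their receptors, and the scid mutation lies in Prkdc, which encodes the DNA-dependent protein kinase that joins the cut ends. SCID mice are therefore known for lacking mature T and B cells while keeping NK cells. CB17 mice are congenic with BALB/c, whereas the gene models used for positions and lengths are of the C57BL/6 reference, which matters for the Ly49 receptors (Klra genes), since these differ in number between strains.

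The members sat on 13 chromosomes, 13 of the 46 on chromosome 6. All 11 Klr members were on chromosome 6, and the 10 other than Klrg1 lay within 1455 kb at chr6:128778485-130233322 (GRCm38, GENCODE M21). RefSeq (GRCm38.p6) supplied 45 promoters for 35 of the 46 members, read as the 250 bases before each start. Factors of the Runx, Ets and T-box families are known to act at many NK and T cell genes, and each family's core motif was searched on both strands: TGTGGT for Runx, GGAAGT for Ets and AGGTGTGA for T-box, none of which contains another. TGTGGT was present in 17 of the 45 member promoters (37.8%), against 14.0% of all 32851 promoters of the same length, and GGAAGT in 21 (46.7%), against 19.7%. AGGTGTGA was present in 2 (4.44%), against 1.12%. Member promoters held a median of 3 CG dinucleotides, against 6 over all promoters, so the sets also differed in base composition, and a match of letters shows no binding. The promoters of 3 members are shown because Ncr1 marks the NK lineage, and Gzmb and Lat had the smallest p-values of the members at 6 h. Capitals mark matches to any of the 3 motifs, and Lat had none in this window.
Ncr1, chr7:4337465-4337714, strand +: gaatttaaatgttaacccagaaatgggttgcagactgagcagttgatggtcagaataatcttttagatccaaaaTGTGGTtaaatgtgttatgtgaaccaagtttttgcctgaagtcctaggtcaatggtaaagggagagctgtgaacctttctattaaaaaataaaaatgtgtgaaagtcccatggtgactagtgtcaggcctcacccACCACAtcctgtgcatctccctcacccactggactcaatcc
Gzmb, chr14:56262335-56262584, strand -: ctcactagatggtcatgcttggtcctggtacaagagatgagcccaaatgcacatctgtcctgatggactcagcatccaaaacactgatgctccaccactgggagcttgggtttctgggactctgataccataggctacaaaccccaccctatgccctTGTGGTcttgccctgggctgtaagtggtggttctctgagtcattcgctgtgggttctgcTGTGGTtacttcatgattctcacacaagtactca
Lat, chr7:126369569-126369818, strand -: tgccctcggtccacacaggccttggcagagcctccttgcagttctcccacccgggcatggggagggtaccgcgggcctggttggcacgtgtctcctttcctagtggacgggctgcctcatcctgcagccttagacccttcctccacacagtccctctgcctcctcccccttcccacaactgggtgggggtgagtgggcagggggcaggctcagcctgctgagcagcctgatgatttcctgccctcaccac

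The blood of these mice held abundant NK transcripts and few of the 3 CD3 chains or of the 3 B cell genes. The 6 genes taken to define NK cells (Ncr1, Klrb1c, Eomes, Gzma, Prf1 and Gzmb) had 35385 counts over the 12 libraries, with 1817 to 3836 in each. The 3 invariant CD3 chains that define T cells (Cd3d, Cd3e and Cd3g) had 226 counts, with 2 to 39 in each library, and the 3 B cell genes (Cd79a, Cd79b and Ms4a1) had 31, with 0 to 4 in each. In RNA from whole blood, fewer cells of a type and less RNA per cell cannot be told apart.

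To compare levels between genes, CPM was divided by the length of all exons in kb. On this scale the cytotoxic genes led the members. Gzma, which encodes granzyme A, averaged 128.8 CPM per kb over the 12 libraries, Nkg7, a cytotoxic granule membrane protein, 87.8, and Ccl5, a chemokine stored by NK and T cells, 73.5. Below them came Il2rb, the shared receptor chain for interleukin-2 and interleukin-15, at 41.0 CPM per kb, then Prf1 (perforin) at 34.1, Gzmb (granzyme B) at 31.9 and Ncr1 (NKp46, an activating receptor specific to NK cells and related innate cells) at 31.1. The per-library ranges of Prf1 (25.4 to 51.4), Gzmb (18.7 to 47.4) and Ncr1 (20.5 to 43.8) overlapped, so their order was within the spread. Cd3e peaked at 0.171 CPM per kb in any library, below the lowest library of each of these 7 genes.

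**Figure D1:**
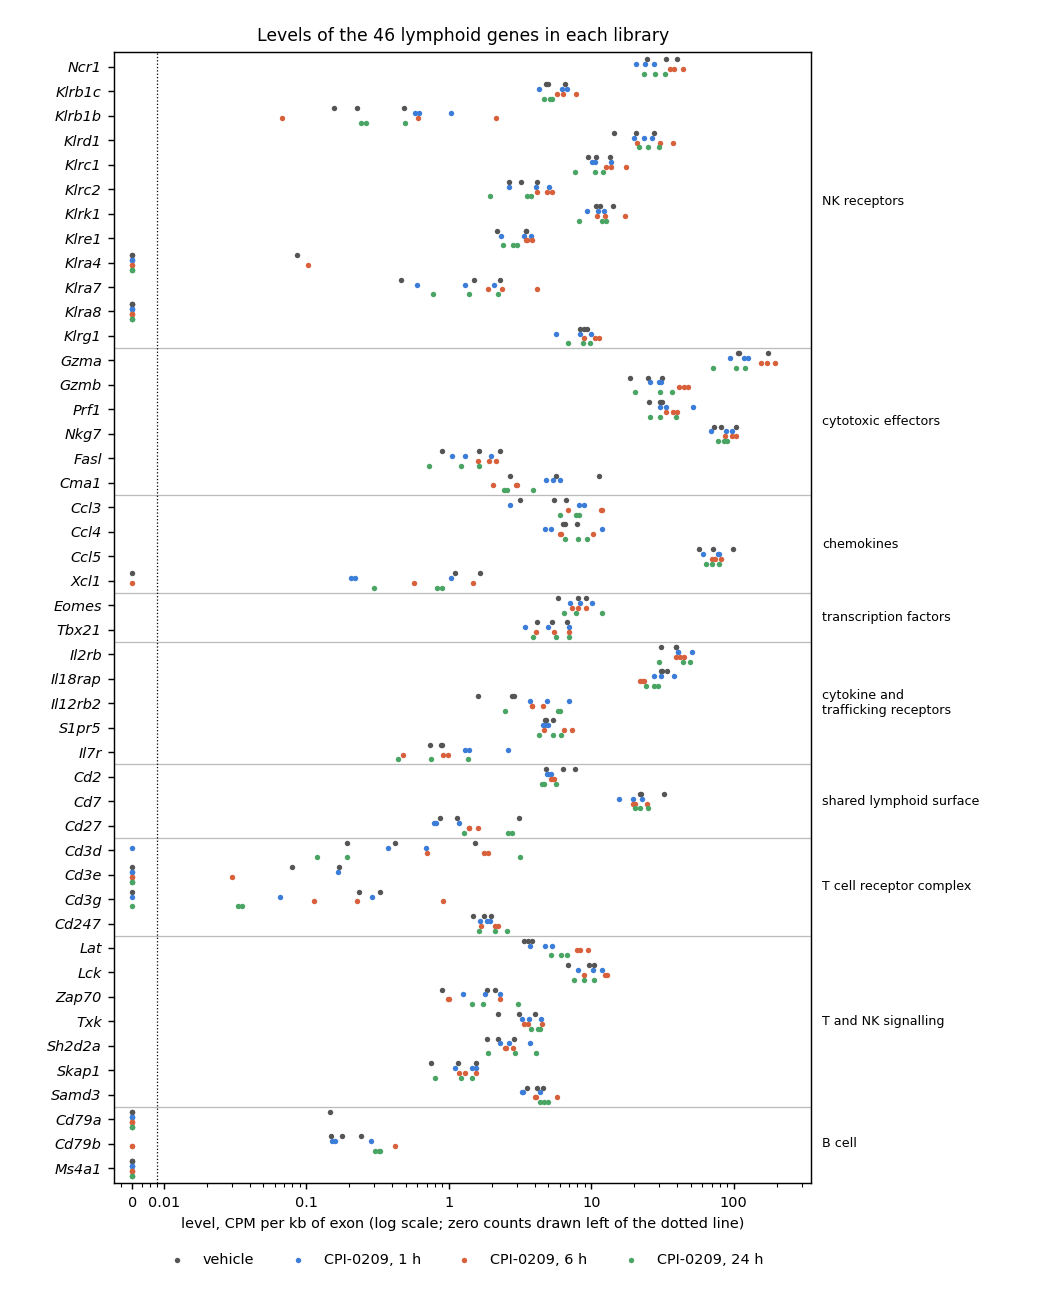
Level of each of the 46 lymphoid genes in each of the 12 libraries, in CPM per kb of exon on a log axis, with zero counts drawn left of the dotted line; each point is 1 library and colours give the group. Gzma, Nkg7 and Ccl5 sit highest, with means of 128.8, 87.8 and 73.5, while Cd3e, Cd79a, Klra4, Klra8 and Ms4a1 lie at or near 0.

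The NK receptors ranged widely among themselves. Klrd1 (CD94) averaged 24.8 CPM per kb, and its inhibitory partner Klrc1 (NKG2A) 11.9, the same as Klrk1 (the activating receptor NKG2D) at 11.9. Klrg1, an inhibitory receptor of mature NK cells, stood at 8.89, Klrb1c (NK1.1) at 5.70, Klrc2 (NKG2C) at 3.78, and Klre1 at 3.15. Klra7 (Ly49G) reached 1.75 and Klrb1b 0.576 CPM per kb. Klra4 (Ly49D) had 2 counts in all 12 libraries together and Klra8 (Ly49H) had 0, a gene that the BALB/c genome is known to lack. Close relatives share sequence here, so counts of some receptors are uncertain: of all 50-base windows, 38.6% of those in Klrc1 transcripts, 27.2% in Klrb1b, 33.1% in Klra8, 17.0% in Klrb1c, 16.3% in Klrc2 and 12.3% in Klra7 also occur in another gene.

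Other members of the NK programme were present at intermediate levels. The T-box factors Eomes and Tbx21 (T-bet), which direct NK maturation, averaged 8.26 and 5.40 CPM per kb. Il18rap, a chain of the interleukin-18 receptor, averaged 28.5, S1pr5, which lets NK cells leave the marrow, 5.30, Il12rb2, the interleukin-12 receptor chain, 4.12, and Il7r, typical of T cells and of innate lymphoid cells, 1.06. The chemokines Ccl4 and Ccl3 averaged 7.42 and 7.30, Fasl, a death ligand, 1.53, and Xcl1, a chemokine that draws dendritic cells, 0.690, from 36 counts in all. Cd7, found on T and NK cells, averaged 22.3, Cd2, an adhesion receptor, 5.42, and Cd27, a costimulatory receptor, 1.58.

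Each of the 7 signalling proteins shared by T and NK cells had a mean above that of Cd3d, the highest of the 3 CD3 chains, although Cd3d reached 3.19 CPM per kb in 1 library, above the means of Sh2d2a, Zap70 and Skap1. Lck, the kinase that starts antigen receptor signalling, averaged 9.87 CPM per kb, Lat, the adaptor phosphorylated downstream of it, 5.69, Samd3 4.26, Txk, a Tec family kinase, 3.72, Sh2d2a, an adaptor that binds Lck, 2.70, Zap70, the kinase that joins the receptor to Lat, 1.73, and Skap1, an adaptor of integrin activation, 1.26. Cd247, the zeta chain that NK cells also use for signalling, averaged 1.92, above Cd3d at 0.924, Cd3g at 0.186 and Cd3e at 0.0373. Of the 50-base windows of Cd247, 55.9% also occur in other genes, most often in Pou2f1, so the reads of these genes may not be separable.

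The CD3 counts were uneven between libraries and between chains. The vehicle libraries held 3, 26 and 6 counts of Cd3d, those at 1 h 5, 11 and 0, those at 6 h 23, 26 and 10, and those at 24 h 3, 2 and 37. Cd3g had 0, 10 and 6 counts in vehicle, 7, 0 and 2 at 1 h, 5, 3 and 23 at 6 h, with 1, 1 and 0 at 24 h. Cd3e had 6, 3 and 0 counts in vehicle, 0, 6 and 0 at 1 h, 0, 1 and 0 at 6 h, and 0 in all 3 libraries at 24 h. The chains did not peak in the same libraries: the library with most Cd3d, with 37 counts at 24 h, had 0 counts of both Cd3e and Cd3g, and every treated group overlapped with vehicle for each chain. The B cell antigen receptor chain Cd79b had 3, 2 and 2 counts in vehicle, 3, 2 and 2 at 1 h, 4, 0 and 0 at 6 h, with 4, 4 and 3 at 24 h. Its partner Cd79a had 2 counts, both in 1 vehicle library, and Ms4a1 (CD20) had 0 in all 12, which allows up to 0.322 to 0.469 CPM in a library at a floor of 3 counts; floors cover counting error only.

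Receptor constant genes outside the 46 give context to these low levels. Trdc, the T cell receptor delta constant gene, had 12302 counts and averaged 32.8 CPM per kb, close to Ncr1, and Trbc1 had 545 counts, while Trbc2 had 128 and Trac, the alpha constant gene, 24. Ighm, the immunoglobulin mu constant gene, had 3682 counts and averaged 19.8 CPM per kb, yet Igkc, the kappa light chain constant gene, had 65 counts. Unrearranged Trdc transcripts are known in human NK cells, and unrearranged Ighm transcripts are known in several lymphoid cells; whether these counts came from rearranged genes was not tested. The recombinase genes Rag1 and Rag2 had 8 and 0 counts. Prkdc itself was present, at 23.6, 19.8 and 22.8 CPM in vehicle, 22.2, 20.4 and 24.6 at 1 h, 22.4, 17.1 and 23.0 at 6 h, with 20.03, 23.5 and 27.5 at 24 h, with all groups overlapping; gene counts do not show the scid mutation.

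At 1 h after the last dose none of the 38 tested members passed the threshold, an adjusted p of 0.05 in edgeR's quasi-likelihood test over 13384 genes, where 0.194% of all genes did. DESeq2 and limma-voom called 0 members too. Of the 38 members 3 had an unadjusted p under 0.05, against 6.99% of all tested genes. Il12rb2 had 26.4, 14.0 and 18.5 CPM at 1 h, against 10.8, 10.5 and 6.11 CPM in vehicle, a log2 fold change of 1.10 (SE 0.34, adjusted p = 0.325). Every 1 h library lay above every vehicle library, as also held for Il7r, Il2rb and Klrb1b, making 4 members above and 0 below, when 8.92% and 8.44% of all tested genes lay apart in these directions. Il7r, at 12.1, 6.05 and 6.46 CPM against 4.18, 4.08 and 3.44 CPM in vehicle, had a log2 fold change of 1.06 (SE 0.42, adjusted p = 0.580). Ncr1 and Cd7 were the next by p, with log2 fold changes of -0.45 (adjusted p = 0.687) and -0.41 (adjusted p = 0.752), and their groups overlapped. Leaving out 1 library moved 3 of these values by over 1.5 times: Ncr1 to -0.27 and Cd7 to -0.19 without vehicle library 2, and Il7r to 0.70 without 1 h library 1. Of the windows of Il12rb2, 38.0% also occur in other genes, most often in Serbp1, a neighbour on the chromosome that had a log2 fold change of 0.25 at 1 h and did not pass the threshold.

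At 6 h Lat rose and no other member passed the threshold, when 4.84% of all tested genes did, 4.06% upward and 0.785% downward. Lat had 26.1, 23.0 and 21.9 CPM at 6 h, against 10.7, 9.89 and 9.29 CPM in vehicle. The 6 h libraries all lay above all vehicle libraries, and averaged 23.7 ± 2.21 CPM, against 9.96 ± 0.704 CPM in vehicle (SD, n = 3 each). The log2 fold change was 1.25 (SE 0.20, adjusted p = 0.00243, edgeR). The gene lies on chromosome 7 at chr7:126363824-126369570 on the minus strand (GRCm38), and besides T and NK cells it is known to serve in platelets and mast cells. The call held with each library left out in turn. It was lost with the reticulocyte level as a covariate, at a log2 fold change of 1.12 and an adjusted p of 0.214 (edgeR). With that covariate 25 of all tested genes passed at 6 h, against 648 without it. Reticulocyte levels lay highest at 6 h, so this fit cannot separate them from the 6 h group. Over all alternatives the adjusted p of Lat ran from 1.03e-06 to 0.214.

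**Figure D2:**
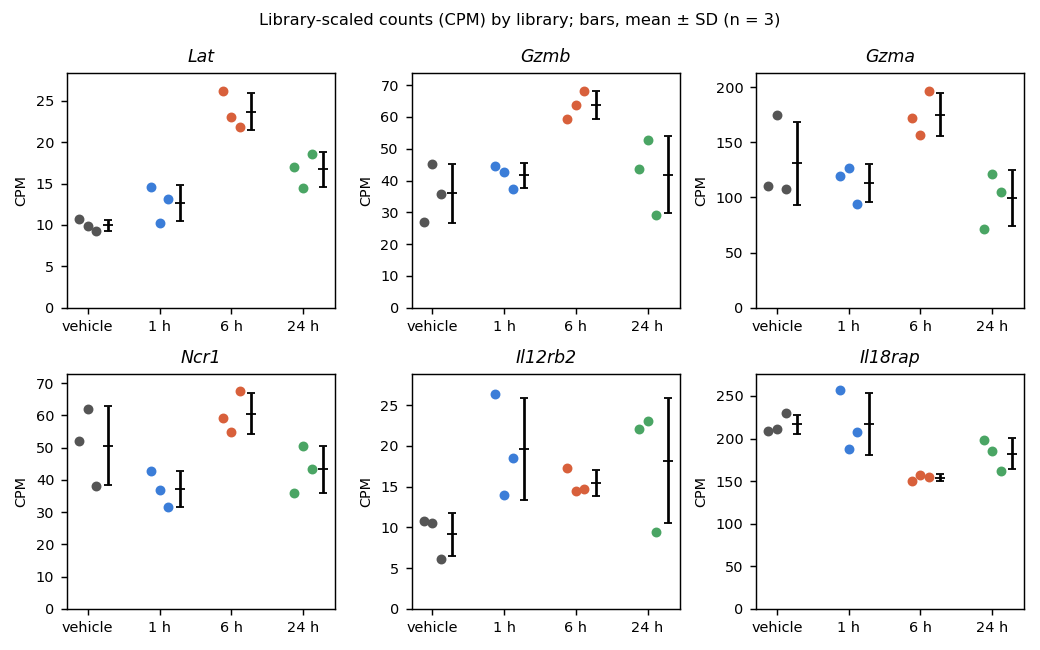
CPM of 6 lymphoid genes in each library (points), with the mean ± SD of each group of 3 (bars); the vertical axes start at 0. The 6 h libraries of Lat lie at 21.9 to 26.1 CPM and those of vehicle at 9.29 to 10.7, while Il18rap lies lowest at 6 h, at 149.6 to 157 CPM.

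Sums of other blood cell lists were set beside these values. Their part in the Lat result was not tested beyond that covariate, which cannot separate it from the 6 h group. The summed level of 19 reticulocyte genes was 87120 to 102600 CPM at 6 h, against 46570 to 54390 CPM in vehicle, and 13 of the 19 rose. The summed level of 10 platelet genes was 2624 to 3527 CPM at 6 h, against 1946 to 2820 CPM in vehicle. Of these 10 genes 0 passed in edgeR or limma-voom and 1 in DESeq2 (Itga2b). In edgeR 3 of 10 had an unadjusted p under 0.05, against 19.6% of all tested genes. The summed platelet ranges overlapped. The log2 fold change was positive for 9 of the 10 platelet genes, with a median of 0.47, against 46.3% of all tested genes. For 5 of the 10 every 6 h library lay above every vehicle library, and for 0 below, against 15.8% and 13.5% of all tested genes. In the mast and basophil list 2 of 5 tested genes rose, Kit and Gata2, and 0 fell, while Cpa3 had a log2 fold change of -1.05 (adjusted p = 0.563) and the proteases Mcpt4 and Tpsb2 had 0 to 3 counts in each 6 h library. The summed level of these 9 mast and basophil genes was 68.1 to 97.2 CPM at 6 h, against 33.3 to 69.2 CPM in vehicle, with overlap. Of the 12 monocyte genes, 1 fell (Ccr2) and 10 had negative values, and their summed level was 1528 to 1966 CPM at 6 h, against 1948 to 3348 CPM in vehicle. Of the 15 neutrophil genes 1 rose (Mmp8). The summed level of the 4 T cell receptor complex genes was 12.8 to 15.98 CPM at 6 h, against 9.42 to 13.5 CPM in vehicle, with overlap and neither of its 2 tested genes past the threshold. Most of this sum was Cd247, which NK cells also use, at 9.03 to 11.8 CPM at 6 h and 7.89 to 10.6 CPM in vehicle. It is therefore not a measure of T cells.

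None of the 6 cytotoxic effectors passed the threshold at 6 h in edgeR, and Gzmb came nearest. Gzmb had 59.4, 63.9 and 68.1 CPM at 6 h, against 26.9, 45.4 and 35.9 CPM in vehicle, with the groups apart (63.8 ± 4.35 against 36.0 ± 9.26 CPM, SD, n = 3 each) and a log2 fold change of 0.82 (SE 0.22, adjusted p = 0.0501). It passed with DESeq2, with limma-voom and with several other settings, and the adjusted p ran from 0.00578 to 0.350. Over all genes DESeq2 called 1160 and limma-voom 667 in this contrast. Prf1 had 103.8, 97.4 and 86.1 CPM at 6 h, against 81.7, 77.9 and 65.7 CPM in vehicle, and Gzma had 172, 157 and 196 CPM, against 110.5, 174 and 107 CPM. Their log2 fold changes were 0.35 (adjusted p = 0.385) for Prf1 and 0.42 (adjusted p = 0.325) for Gzma. The groups were apart for Prf1 and overlapped for Gzma, whose vehicle library 2 stood with the 6 h libraries.

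Il18rap was the member with the smallest p in the other direction, at 149.6, 157 and 155 CPM at 6 h, against 209, 211 and 229.8 CPM in vehicle, with the groups apart. Its log2 fold change was -0.49 (SE 0.15, adjusted p = 0.0833), and it passed with DESeq2. Cma1, a chymase known from mast cells, had 3.29, 2.23 and 3.21 CPM at 6 h, against 12.3, 6.13 and 2.93 CPM in vehicle, and a log2 fold change of -1.29 (SE 0.44, adjusted p = 0.110). Vehicle library 1 was the highest of the 12 for Cma1, with 106 counts, and the mast cell genes Cpa3, Mcpt4 and Tpsb2 had 125, 65 and 73 counts in it, against at most 9, 0 and 0 in the other vehicle libraries. Cma1 still had 57 and 23 counts in vehicle libraries 2 and 3, and 58 in 1 h library 2, where Mcpt4 and Tpsb2 had 1 and 2. The source of the Cma1 counts was not tested. Without vehicle library 1 the log2 fold change of Cma1 was -0.66, and it did not pass.

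As a group, 30 of the 38 tested members had a positive log2 fold change at 6 h, with a median of 0.22, beside a median of -0.04 over all tested genes, of which 46.3% were positive. All 10 tested NK receptors had positive values, with a median of 0.33, and 0 passed in edgeR, DESeq2 or limma-voom. An unadjusted p under 0.05 was reached by 6 of the 38 members and by 0 of these 10 receptors, against 19.6% of all tested genes. The member median was 0.10 without vehicle library 3 and 0.35 without vehicle library 2. These signs depended on the scaling. With library totals alone, which moved the median of all genes by -0.46, 9 of 38 members and 4 of 10 NK receptors were positive and the member median was -0.24. The distance of the member median from the median of all genes was 0.26 under both scalings. Scaling moves all genes by nearly the same amount, so this distance could hardly differ and is no check on the members. The members whose libraries did not overlap were 5 above (Lat, Gzmb, Prf1, Ccl3 and Il12rb2) and 1 below (Il18rap), when 15.8% and 13.5% of all tested genes lay apart in these directions. Serbp1, which shares windows with Il12rb2, also lay above vehicle at 6 h, with a log2 fold change of 0.56 (adjusted p = 0.17, edgeR). What shared reads add to Il12rb2 was not tested. The NK-defining genes other than those above overlapped: Ncr1 had 59.1, 55.0 and 67.5 CPM at 6 h, against 52.0, 62.0 and 37.9 CPM in vehicle, Klrb1c 23.0, 17.0 and 18.6 CPM, against 14.6, 19.2 and 14.3 CPM, and Eomes 37.9, 33.3 and 30.3 CPM, against 38.5, 33.3 and 24.3 CPM.

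**Figure D3:**
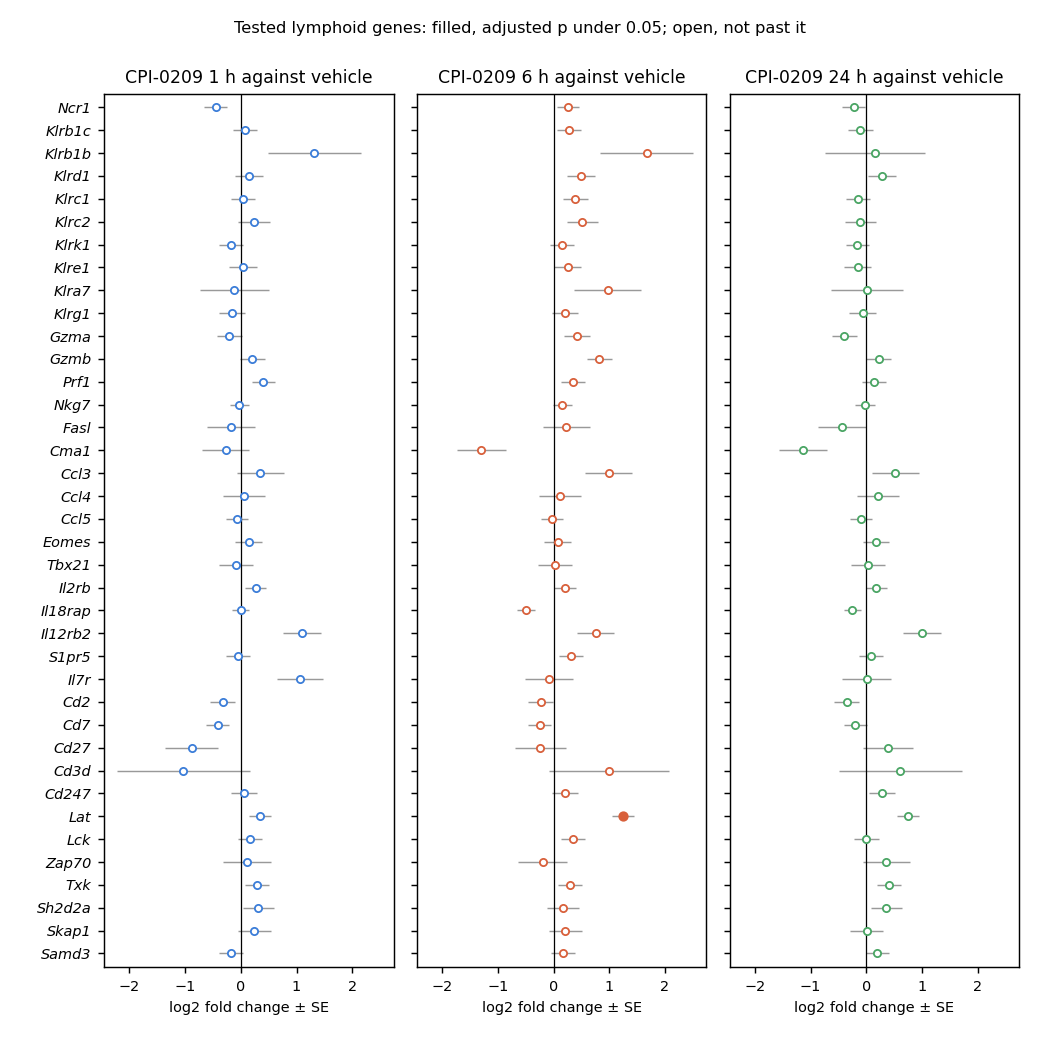
Log2 fold change ± SE of the 38 tested members at 1 h, 6 h and 24 h against vehicle (3 libraries each), from edgeR with TMM scaling; filled points pass an adjusted p of 0.05. The filled point is Lat at 6 h, at 1.25, and the 10 NK receptors at the top of the 6 h panel all lie right of 0 under this scaling but 4 of 10 do with library totals alone.

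At 24 h no member passed the threshold in edgeR, DESeq2 or limma-voom, where 0.105% of all tested genes did in edgeR. The 3 libraries at 24 h were uneven. Their summed levels of the 19 reticulocyte genes were 27550, 38210 and 78440 CPM, and their scaling factors 1.33, 1.21 and 0.856. Without 24 h library 3, 112 of all tested genes passed, against 14 with it, and still 0 members. Of the 38 tested members 3 had an unadjusted p under 0.05, against 8.37% of all tested genes. Lat had 17.0, 14.5 and 18.6 CPM at 24 h, all above vehicle, with a log2 fold change of 0.74 (SE 0.20, adjusted p = 0.295). Il12rb2 had 22.1, 23.1 and 9.38 CPM at 24 h, against 10.8, 10.5 and 6.11 CPM in vehicle, with overlapping groups and a log2 fold change of 0.99 (adjusted p = 0.457). Cma1 and Txk followed, with log2 fold changes of -1.13 (adjusted p = 0.505) and 0.41 (adjusted p = 0.644). Without vehicle library 1, rich in mast cell genes, Cma1 was at -0.48, and Txk was at 0.64 without vehicle library 2 and 0.23 without vehicle library 3. Lat was the 1 member whose 24 h libraries all lay above vehicle, and Il18rap, at 198.6, 185 and 162 CPM, the 1 member below, when 6.34% and 5.61% of all tested genes did so. The member median was 0.01, beside 0.01 over all tested genes, and lay between -0.01 and 0.16 with 1 library left out.

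The mean of the 3 treated groups was also set against vehicle, with the same 3 vehicle libraries. Lat passed, when 0.934% of all tested genes did, 0.882% upward and 0.0523% downward, with a log2 fold change of 0.78 (SE 0.17, adjusted p = 0.0448), although its lowest 1 h library, at 10.3 CPM, lay below the highest vehicle library at 10.7 CPM. This call was lost without any 1 of the 3 vehicle libraries, of 1 h libraries 1 and 3, or of the 3 libraries at 6 h, at adjusted p-values from 0.0664 to 0.238, and the log2 fold change then lay between 0.74 and 0.83. No member lay wholly above or below vehicle over the 9 treated libraries, against 1.3% and 0.77% of all tested genes. An unadjusted p under 0.05 was reached by 4 of the 38 tested members, against 10.5% of all tested genes. Il12rb2 (0.95, adjusted p = 0.184), Cma1 (-0.90, adjusted p = 0.318) and Gzmb (0.42, adjusted p = 0.454) were the next members by p. Without vehicle library 1 the log2 fold change of Cma1 was -0.25 and that of Gzmb 0.24.

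Between times after the dose no member passed in edgeR. At 6 h against 1 h 0.493% of tested genes passed. Of the 38 tested members 7 had an unadjusted p under 0.05, against 20.7% of all tested genes. The smallest p-values belonged to Lat (log2 fold change 0.90, adjusted p = 0.0599), Ncr1 (0.71, 0.099), Il18rap (-0.50, 0.111) and Gzma (0.63, 0.147). DESeq2 called 3 of these, Lat, Ncr1 and Il18rap, among 848 genes called in all. Limma-voom called 0 of them, among 66 genes. Ncr1 had 59.1, 55.0 and 67.5 CPM at 6 h, all above its 42.6, 37.0 and 31.6 CPM at 1 h.

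At 24 h against 6 h 1.76% of tested genes passed. This number, 235 genes, became 2243 without 24 h library 3, with Gzma among them. It became 0 without 24 h library 1 or 2. Of the 38 tested members 6 had an unadjusted p under 0.05, against 22.1% of all tested genes. Gzma had 71.8, 121.5 and 104.5 CPM at 24 h, all below the 6 h libraries, with a log2 fold change of -0.82 (SE 0.23, adjusted p = 0.0695). It passed with DESeq2, which called 1218 genes in all, and with limma-voom, which called 729. Gzmb (-0.60, adjusted p = 0.135), Lat (-0.50, 0.151) and Klrc1 (-0.54, 0.174) came next, Klrc1 at -0.35 without 24 h library 1. All 10 tested NK receptors had negative values in this contrast, but 6 of 10 were positive with library totals alone, which moved the median of all genes by 0.53. At 24 h against 1 h 0.0224% passed. Of the 38 tested members 2 had an unadjusted p under 0.05, against 6.11% of all tested genes. DESeq2 and limma-voom called 0 members. The smallest p-values belonged to Cd27 (1.26, adjusted p = 0.693), Il7r (-1.06, 0.756), Lat (0.40, 0.862) and Cma1 (-0.86, 0.877), with Il7r at -0.68 without 1 h library 1.

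The summed level of the 12 NK receptor genes gives the spread between libraries of 1 group: 231.5, 299.6 and 214.5 CPM in vehicle, 271, 238 and 191 CPM at 1 h, 299.5, 257 and 359 CPM at 6 h, and 185, 260.2 and 249.9 CPM at 24 h. All 4 groups overlapped on this sum. The summed level of the 6 cytotoxic effectors was 281 to 403 CPM in vehicle, 289 to 395 CPM at 1 h, 403 to 446 CPM at 6 h and 276 to 339 CPM at 24 h. The scaling factors at 6 h, 0.766 to 0.812, lay below those of vehicle, 1.03 to 1.12, beside the higher reticulocyte sums, and what this adds to the member values was not tested.

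**Figure D4:**
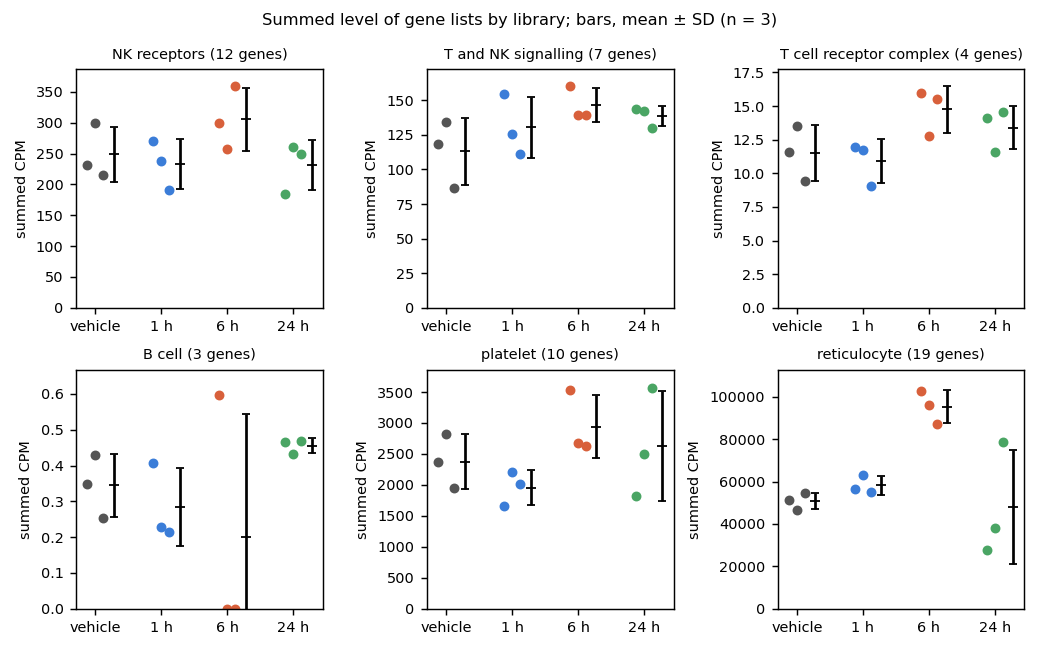
Summed CPM of 6 gene lists in each library (points), with the mean ± SD of each group of 3 (bars, cut at 0 for the B cell list); each vertical axis starts at 0 and has its own scale. NK receptors lie at 185 to 359 CPM in all 12 libraries and B cell genes at 0 to 0.597, while the reticulocyte sum reaches 87120 to 102600 at 6 h. Most of the T cell receptor complex sum is Cd247, a chain that NK cells also use.

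Other lymphoid genes, from lists written from textbook knowledge, gave 1 call in edgeR. At 6 h against vehicle, edgeR called 4.84% of all tested genes. It called 0 of 19 tested other NK genes, 0 of 10 tested other T cell genes and 0 of 7 tested other B cell genes. Of these, 5, 0 and 0 had an unadjusted p under 0.05, against 19.6% of all tested genes. In these 3 lists limma-voom called 0, among 667 genes in all, and DESeq2 called 1, the granzyme gene Gzmk, among 1160. Of the 7 tested genes of V(D)J recombination and end joining, Dclre1c fell, when 0.785% of all tested genes were called lower. This gene encodes Artemis, the nuclease that opens hairpin ends together with the kinase encoded by Prkdc. Dclre1c had 55.1, 45.1 and 58.9 CPM at 6 h, against 82.9, 75.7 and 97.98 CPM in vehicle, with the groups apart and a log2 fold change of -0.69 (SE 0.17, adjusted p = 0.0331, edgeR). It passed with DESeq2 and limma-voom too. DESeq2 also called Nhej1, an end-joining factor, which had a log2 fold change of 1.89 (SE 0.56, adjusted p = 0.0699) in edgeR. At 1 h and at 24 h edgeR, DESeq2 and limma-voom called 0 of the tested genes in these 4 lists. Over all tested genes edgeR called 0.194% and 0.105% there. In edgeR 2 and 1 of them had an unadjusted p under 0.05, against 6.99% and 8.37% of all tested genes.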

How the data were processed

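The authors deposited whole-number counts per gene, not scaled to library size, for 12 whole blood libraries. Per the labels' protocols, RNA came from a PAXgene kit and libraries were made after ribosomal RNA depletion, with paired-end reads. The submitters' processing notes name RSEM without a version, and hg38, although the gene identifiers are of mouse; the aligner, the annotation and whether strand was used are not stated in these notes.

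Counts were analysed in R 4.3.3 with edgeR 4.0.16. Genes were kept by filterByExpr (13384 of 55367), scaled by TMM, and fitted by the quasi-likelihood method with 4 group means over 12 libraries, which also gives every adjusted p not credited to another tool. P-values were two-sided and adjusted by Benjamini-Hochberg over all 13384 genes within each of 7 contrasts, with a threshold of 0.05. An exact permutation test of 3 against 3 cannot go below 0.1. CPM is on TMM-scaled library sizes. Exon lengths and positions came from GENCODE M21 (GRCm38), which held 55035 of the identifiers.

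Members and lists were chosen with earlier results of these data known. Named in each contrast were the members past the threshold and, where fewer than 4 passed, those with the smallest p up to 4 in all. Levels of the members that define NK cells were given at least at 6 h and in vehicle. For those that define T and B cells, counts were given for all libraries. Members whose groups did not overlap were named in the contrasts against vehicle. Between times, lack of overlap was stated for Ncr1 and Gzma alone, and other members also lay apart. Prf1 at 6 h, and the sums and other genes shown beside a result, were named with their values in view. Alternatives were DESeq2 1.42.0, limma-voom (limma 3.58.1), other scalings, filters, samples and covariates, and each library left out in turn. The fit was tested on simulated counts. The closest replicates differed at 8.18 chi-square per degree of freedom, so none was counted as a repeat of another.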

Additional observations from a re-analysis of the deposited data

How the results depend on the processing

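The number of members past the threshold depended on the setting. At 6 h against vehicle it was 1 (Lat), against 2 with DESeq2 size factors, with a filter of 5 CPM in 3 libraries and with limma-voom (Gzmb and Lat), 3 with library totals alone (Cma1, Il18rap and Lat), 3 with no filter (Cma1, Gzmb and Lat), 3 with DESeq2 and 3 in a fit of only the groups compared (Gzmb, Il18rap and Lat), 0 with the reticulocyte covariate, and 1 to 3 with each library left out. The 3 members came without 24 h library 1 or 3, where 1205 and 1266 of all tested genes passed, against 648. For the mean of the 3 times it was 1 (Lat), against 0 with library totals alone and with limma-voom, 2 with no filter and with DESeq2 (Il12rb2 and Lat), 2 with the reticulocyte covariate (Il12rb2 and Il2rb), and 0 to 2 with a library left out; a fit of only the groups compared does not apply to it. At 1 h it was 0, against 1 with no filter (Il12rb2) and 2 with the reticulocyte covariate (Il12rb2 and Il2rb), and at 24 h 0, against 1 with either (Il12rb2); both stayed at 0 with each library left out. At 6 h against 1 h it was 0, against 2 with library totals alone (Il18rap and Il7r), 3 with no filter (Gzma, Lat and Ncr1), 3 with DESeq2, 5 with only the groups compared (Gzma, Gzmb, Il18rap, Lat and Ncr1) and 0 to 4 with a library left out, the 4 without 24 h library 3. At 24 h against 6 h it was 0, against 1 with library totals alone (Il18rap), 2 with no filter (Cd3g and Gzma), 1 with DESeq2 and with limma-voom (Gzma), and 0 to 1 with a library left out. At 24 h against 1 h it stayed at 0 under every alternative run. The log2 fold change of Lat at 24 h against 6 h was 0.0044 with library totals alone, against -0.50. The causes were not tested.

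Replicate numbers did not pair the libraries. Deviations from the group means correlated at -0.111 to 0.168 for same-numbered libraries and -0.182 to 0.179 for others. With the replicate block, 2 members (Gzmb and Lat) passed at 6 h.

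Genes called among all tested numbered 26 at 1 h (7 to 469 over the alternatives), 648 at 6 h (25 to 1832), 14 at 24 h (1 to 271), 125 for the mean (14 to 499), 66 at 6 h against 1 h (1 to 1720), 235 at 24 h against 6 h (0 to 2951) and 3 at 24 h against 1 h (0 to 205). DESeq2 called 1160 at 6 h, 369 for the mean, 848 at 6 h against 1 h and 1218 at 24 h against 6 h. A fit of only the groups compared called 1382 at 6 h and 1720 at 6 h against 1 h. With no filter the numbers were 288 at 1 h, 1265 at 6 h, 237 at 24 h and 499 for the mean. Between times they were 1227 at 6 h against 1 h and 1477 at 24 h against 6 h. The reticulocyte covariate gave 469 at 1 h, 25 at 6 h, 271 at 24 h and 341 for the mean. Without 24 h library 3 the numbers were 165 at 1 h, 1266 at 6 h, 112 at 24 h and 241 for the mean. Between times they were then 1285 at 6 h against 1 h and 2243 at 24 h against 6 h. Without 24 h library 1 they were 1205 at 6 h and 1006 at 6 h against 1 h. With library totals alone the split at 6 h was 344 higher and 1488 lower, against 543 and 105, at 6 h against 1 h 17 and 657, against 18 and 48, and at 24 h against 6 h 2692 and 259, against 68 and 167. Klra4, Klra8, Xcl1, Cd3e, Cd3g and the 3 B cell genes were too low for the main filter. Klra8 is a gene that the BALB/c genome is known to lack. For the others, Klra4 among them, the parts of depth and of strain in the low counts were not tested. With no filter Cd3g was the 1 of these 8 called, at 24 h against 6 h.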
